A study of Mus musculus with 6 samples.

Results

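The genes described here encode the proteins that license origins, open and copy DNA at the replication fork, and carry cells through S phase. They were chosen by name, as a list of 58 genes, and all 58 were measured among the 19943 genes tested, each taken as the mean of the probe sets that carry its symbol alone. The arrays held RNA of mouse natural killer (NK) cells, lymphocytes of the innate immune system. The IL-18 group had 3 arrays of IL-18 generated cells, sorted as live, CD3 negative, NK1.1 positive, c-kit positive and CD11b negative after a night in medium with 300 IU IL-2 and 25 ng/ml IL-18. The unstimulated group had 3 arrays of cells sorted as live, CD3 negative, NK1.1 positive, c-kit negative and CD11b positive, and their labels carry the same growth protocol, IL-18 included, so whether these cells were cultured or given IL-2 is not settled by them. No strain, age or genotype of the mice is stated in the labels. Effects of IL-18, IL-2, culture and gating cannot be told apart here.

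Before a cell divides, the origin recognition complex, Cdc6 and Cdt1 load the ring-shaped Mcm helicase onto DNA in G1, which is called licensing. Kinases then recruit Cdc45 and the GINS complex, the helicase opens the double strand, and the polymerases copy both strands behind a sliding clamp. E2F transcription factors switch many of these genes on at the boundary of G1 and S, and resting lymphocytes keep them low until a cytokine or an antigen makes the cell divide.

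In the IL-18 generated cells 43 of the 58 genes rose and 3 fell at a limma adjusted p below 0.05, and 12 did not pass. Over all genes tested, 19.7% were called higher and 16.7% lower by the same rule. The median change of the 58 was 0.51 on the log2 scale, beside -0.06 over all genes tested. The changes were moderate. With a change of at least 2-fold required as well, 5 of the 58 were called higher (Tipin, Orc2, Prim1, Orc1 and Dtl) and 2 lower (E2f2 and E2f8), beside 3.62% and 3.24% of all genes. The count of 2 became 1, as E2f8 moved inside 2-fold, without IL-18 replicate 1 or unstimulated replicate 1 or 2, and with array weights, quantile normalization or median centring of arrays. Each probe set was deposited with its median over the 6 arrays set to 0, on what was read as a log2 scale, so a value below shows a difference between arrays and not a level. Changes are the IL-18 mean minus the unstimulated mean, ± SE, with n = 3 arrays per group. The p-values measure the spread between these arrays, which the design text calls independent preparations. In RNA from a sorted population, a larger share of cells in S phase and more RNA per cell cannot be told apart.

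**Figure D1:**
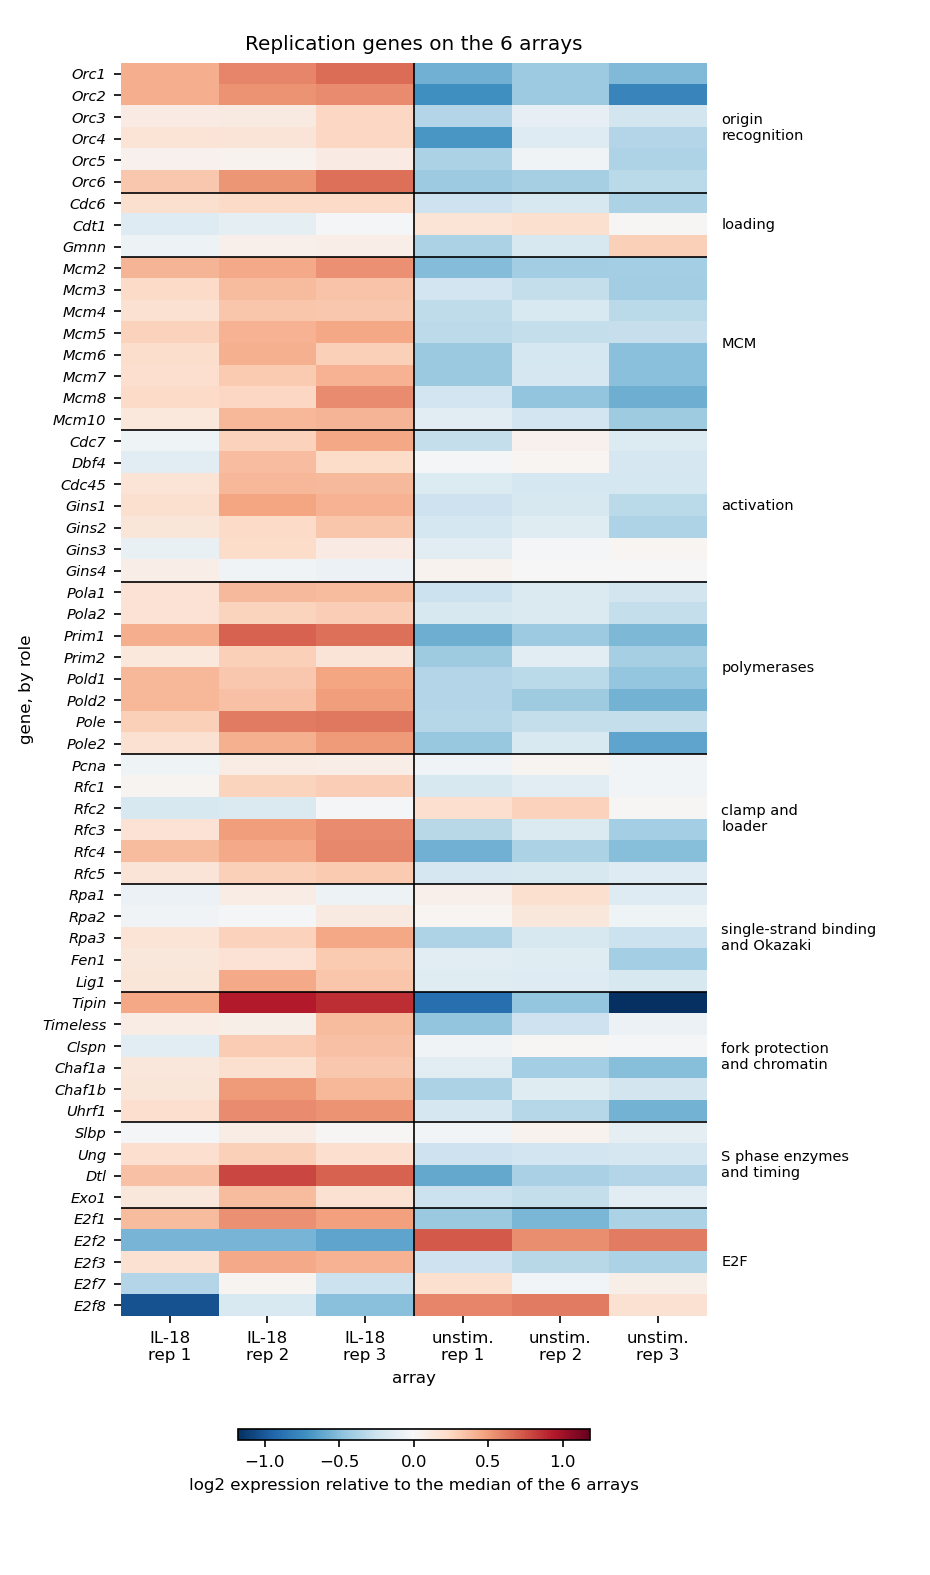
Heat map of the 58 replication genes (rows, by role) on the 6 arrays (columns), coloured by log2 expression relative to the median of the 6 arrays. The origin recognition, MCM and polymerase blocks are red in all 3 IL-18 columns and blue in all 3 unstimulated ones, while E2f2 and E2f8 show the opposite colours.

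The E2F link gives a reason to show the letters in front of these genes. RefSeq start sites in GRCm38.p6 were found for 48 of the 58 genes, with 60 windows in all, and the 250 bases before each start were read on both strands. The search used the letters of an E2F site, TTTCCCGC, TTTCGCGC, TTTGCCGC and TTTGGCGC, some of which can overlap, and the letters TTTGAA of the element known as CHR from genes of late cell cycle phases. At least 1 of the 4 E2F strings was present in 21.7% of the members' windows (13 of 60) and in 1.86% of all 32851 windows. TTTGAA was present in 15% of the members' windows and in 16% of all windows. By gene, an E2F string stood before 11 of the 36 matched genes that rose, 2 of the 10 that did not pass and 0 of the 2 that fell. For TTTGAA the counts were 5 of the 36, 2 of the 10 and 2 of the 2. A gene was counted if any of its windows matched, and no share by gene was computed over all genes. A window can lie before an annotated start inside a gene, and which starts these cells use was not tested. A match is a description of letters, and no binding was measured here.

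The windows below belong to genes with changes described further on, and capitals mark the matched strings. Mcm6 has the most matches, with 2 of its 3 overlapping, at chr1:128359706-128359955 (minus strand). Orc1 is at chr4:108579204-108579453 (plus strand) and Dtl at chr1:191575545-191575794 (minus strand). E2f3, which rose, is at chr13:29986064-29986313 (minus strand), and its window holds both an E2F string and TTTGAA. E2f8, which fell, is at chr7:48881597-48881846 (minus strand), and its window holds TTTGAA only. Windows not shown with TTTGAA only include those of Mcm2, Pold2, Cdc45 and Fen1, which rose. Others are those of Cdc7, which did not pass, and of E2f2, which fell.
Mcm6: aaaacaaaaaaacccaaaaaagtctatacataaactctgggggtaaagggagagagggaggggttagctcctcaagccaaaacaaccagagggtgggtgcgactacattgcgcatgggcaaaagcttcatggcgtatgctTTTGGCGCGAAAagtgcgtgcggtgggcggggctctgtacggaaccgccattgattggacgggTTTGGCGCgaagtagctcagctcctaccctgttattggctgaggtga
Orc1: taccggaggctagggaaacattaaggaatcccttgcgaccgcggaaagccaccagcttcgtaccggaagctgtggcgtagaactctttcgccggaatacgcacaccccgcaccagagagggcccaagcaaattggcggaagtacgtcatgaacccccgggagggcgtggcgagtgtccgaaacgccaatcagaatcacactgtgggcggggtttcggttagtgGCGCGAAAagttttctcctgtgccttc
Dtl: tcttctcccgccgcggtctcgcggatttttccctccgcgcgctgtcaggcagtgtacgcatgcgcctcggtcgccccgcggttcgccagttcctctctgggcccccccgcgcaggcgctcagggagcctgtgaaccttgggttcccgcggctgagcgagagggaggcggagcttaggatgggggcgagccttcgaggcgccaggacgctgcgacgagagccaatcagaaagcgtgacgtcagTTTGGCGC
E2f3: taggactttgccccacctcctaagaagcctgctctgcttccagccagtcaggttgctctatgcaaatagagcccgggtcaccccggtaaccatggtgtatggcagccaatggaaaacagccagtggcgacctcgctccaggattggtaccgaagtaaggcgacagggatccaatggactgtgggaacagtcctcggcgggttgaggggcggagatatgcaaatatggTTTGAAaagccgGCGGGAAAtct
E2f8: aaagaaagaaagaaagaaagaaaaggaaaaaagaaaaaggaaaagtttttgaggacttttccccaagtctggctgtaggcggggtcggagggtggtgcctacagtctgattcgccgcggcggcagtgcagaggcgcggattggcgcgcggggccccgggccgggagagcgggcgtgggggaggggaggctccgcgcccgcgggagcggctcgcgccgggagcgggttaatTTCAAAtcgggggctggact
In Dtl, E2f3 and Orc1 the E2F string ends within 20 bases of the start. The one in E2f3 lies a few bases after TTTGAA.

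All 6 genes of the origin recognition complex, which marks the places where replication can begin, rose, with a median of 0.73. Orc2 had the largest change of the group, 1.15 ± 0.10, or 2.22-fold (limma adjusted p 8.27e-06). It read 0.43, 0.53 and 0.56 on the IL-18 arrays of replicates 1, 2 and 3, and -0.72, -0.43 and -0.78 on the unstimulated ones. Orc1, the subunit known to vary with the cell cycle, read 0.43, 0.58 and 0.66 against -0.57, -0.43 and -0.52, a change of 1.06 ± 0.08 (limma adjusted p 4e-06). For both genes the lowest IL-18 array stood far above the highest unstimulated one, by 0.86 for Orc2 and 0.87 for Orc1. Orc6 followed with 0.87 ± 0.09 and Orc4 with 0.58 ± 0.12. Orc3 and Orc5 changed least, with 0.37 ± 0.09 and 0.32 ± 0.10. The Orc5 call (limma adjusted p 0.0272) ended when any array but unstimulated replicate 2 was left out, with adjusted p between 0.0602 and 0.104.

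The factors that load the helicase did not move as a group. Cdc6, the ATPase that works with the origin complex, rose by 0.48 ± 0.08 (limma adjusted p 0.000569). Its arrays were tight, at 0.19, 0.23 and 0.23 in the IL-18 group and -0.24, -0.19 and -0.37 in the unstimulated group. Cdt1, its partner in loading, did not pass at -0.21 ± 0.08 (limma adjusted p 0.0624). The groups did not overlap for Cdt1, but the gap between them was 0.03, and without unstimulated replicate 3 it passed (-0.27, limma adjusted p 0.0384). Gmnn encodes geminin, the inhibitor that binds Cdt1, and its change of 0.12 ± 0.14 did not pass either (limma adjusted p 0.526). Unstimulated Gmnn values ran from -0.37 to 0.28, wider than the IL-18 range of -0.06 to 0.08. Without unstimulated replicate 3, which held the highest value, Gmnn passed with 0.31 (limma adjusted p 0.0317).

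Mcm2 to Mcm7, the 6 subunits of the replicative helicase, all rose, and by similar amounts, from 0.54 ± 0.08 for Mcm4 to 0.90 ± 0.08 for Mcm2. Mcm2 read 0.40, 0.45 and 0.54 on the IL-18 arrays and -0.51, -0.41 and -0.40 on the unstimulated ones, a 1.87-fold difference (limma adjusted p 7.01e-06). Mcm6, whose window is shown above, rose by 0.69 ± 0.10, and Mcm7, Mcm5 and Mcm3 by 0.68 ± 0.10, 0.67 ± 0.08 and 0.62 ± 0.08. The other two genes set beside them rose too. Mcm8, a relative of the helicase that acts in DNA repair, had a change of 0.77 ± 0.12 (limma adjusted p 0.000422). It read 0.23, 0.24 and 0.56 in the IL-18 group and -0.23, -0.47 and -0.58 in the unstimulated group. Its spread within each group was wider than that of Mcm2, with SDs of 0.19 and 0.18 against 0.07 and 0.06. Mcm10, which helps to start the assembled helicase, rose by 0.56 ± 0.11.

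The genes that turn the loaded helicase on split. Cdc45 and the GINS proteins join the Mcm ring to form the active helicase. Gins1 rose by 0.61 ± 0.09 (limma adjusted p 0.000393), reading 0.19, 0.47 and 0.41 against -0.24, -0.19 and -0.32. Cdc45 rose by 0.50 ± 0.08 (limma adjusted p 0.000793), reading 0.16, 0.39 and 0.38 against -0.16, -0.21 and -0.21. In both, IL-18 replicate 1 was the lowest of its group yet above every unstimulated array. Gins2 rose by 0.47 ± 0.09. Gins3 and Gins4 did not pass, with 0.12 ± 0.09 and -0.02 ± 0.07, so only part of the GINS list was called. The 2 subunits of the kinase that fires origins also did not pass, the catalytic Cdc7 with 0.36 ± 0.13 (limma adjusted p 0.0575) and its activator Dbf4 with 0.21 ± 0.12 (limma adjusted p 0.204). IL-18 replicate 1 was low for both, at -0.05 for Cdc7 and -0.13 for Dbf4, where replicates 2 and 3 read 0.27 and 0.46, and 0.36 and 0.22. Without that array both passed, Cdc7 with 0.50 (limma adjusted p 0.0089) and Dbf4 with 0.35 (limma adjusted p 0.0254). Cdc7 also passed without unstimulated replicate 2 (0.45, limma adjusted p 0.0276), with array weights (limma adjusted p 0.0384) and with the robust variance model (limma adjusted p 0.0499).

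All 8 polymerase and primase genes rose, with a median of 0.78. Prim1, the catalytic subunit of the primase that lays down the RNA primers, rose 2.15-fold (1.11 ± 0.09, limma adjusted p 5.1e-06). Its arrays read 0.43, 0.70 and 0.65 in the IL-18 group and -0.58, -0.43 and -0.53 in the unstimulated group. Prim2, the other primase subunit, rose by less, 0.49 ± 0.10. Pold2, an accessory subunit of polymerase delta, which copies the lagging strand, rose by 0.85 ± 0.08 (limma adjusted p 1.8e-05), from -0.35, -0.42 and -0.56 to 0.39, 0.35 and 0.49. The catalytic subunit Pold1 rose by 0.77 ± 0.08. The leading strand enzyme showed changes of about that size, 0.80 ± 0.10 for its catalytic gene Pole and 0.78 ± 0.12 for Pole2. Both subunits of polymerase alpha, which extends the primers, rose by 0.52 ± 0.08 (Pola1) and 0.45 ± 0.08 (Pola2).

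**Figure D2:**
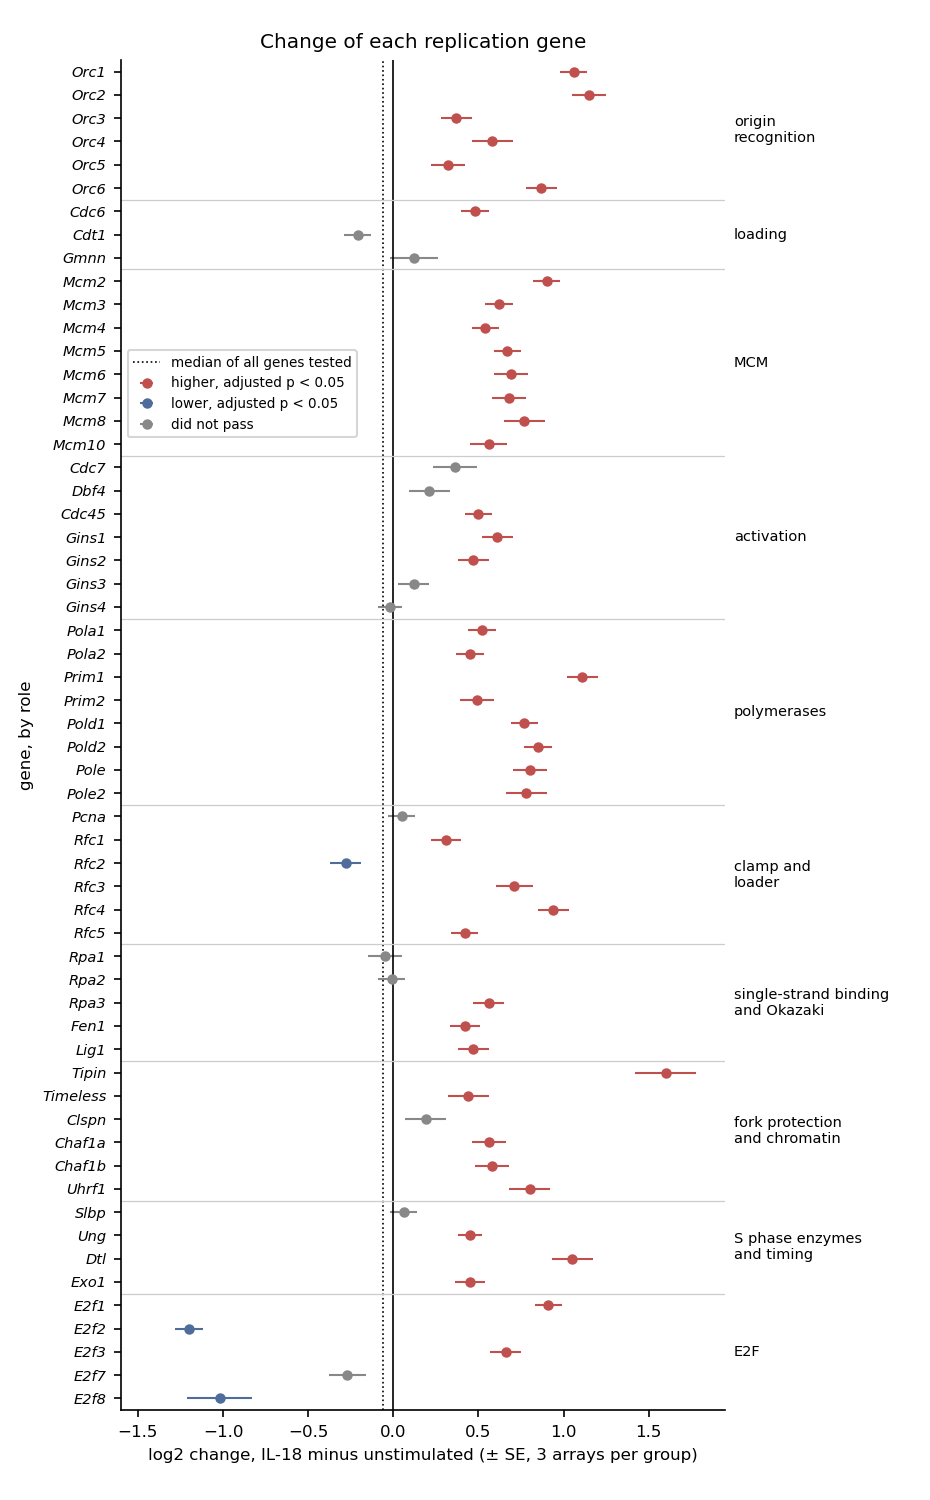
Log2 change (IL-18 minus unstimulated, points) with its SE (bars, 3 arrays per group) for the 58 genes by role, coloured by the limma call at an adjusted p below 0.05. The dotted line marks the median of all genes tested, -0.06. Every origin recognition, MCM and polymerase gene lies to the right of 0 and passed, and E2f2 at -1.20 and E2f8 at -1.02 lie farthest to the left.

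The clamp loader and its clamp gave unlike readings. The loader, replication factor C, has 5 subunits, of which Rfc1, Rfc3, Rfc4 and Rfc5 rose. Rfc4 rose by 0.94 ± 0.09 (limma adjusted p 1.15e-05), reading 0.37, 0.45 and 0.57 against -0.57, -0.37 and -0.50. Rfc3 rose by 0.71 ± 0.11 (limma adjusted p 0.000513), reading 0.17, 0.49 and 0.56 against -0.33, -0.17 and -0.40. Again IL-18 replicate 1 was the lowest IL-18 array for both. Rfc5 rose by 0.42 ± 0.08 and Rfc1 by 0.31 ± 0.09, and the Rfc1 call ended without IL-18 replicate 2 or 3 or unstimulated replicate 1 (limma adjusted p 0.0877, 0.0873 and 0.081). Rfc2 went the other way, with -0.28 ± 0.09 (limma adjusted p 0.0328). It read -0.19, -0.17 and -0.01 in the IL-18 group against 0.20, 0.27 and 0.01 in the unstimulated group. The replicate 3 arrays of the 2 groups were 0.02 apart. That call is weak: it ended with quantile normalization (limma adjusted p 0.052), with arrays centred on their median (0.073), and without IL-18 replicate 1 (0.106) or 2 (0.108) or unstimulated replicate 1 (0.0986) or 2 (0.0764). Pcna, the sliding clamp itself and a common marker of dividing cells, had a change of 0.05 ± 0.08 (limma adjusted p 0.613), with IL-18 arrays at -0.05, 0.09 and 0.08 and unstimulated ones at -0.04, 0.03 and -0.03. Its 2 probe sets differed by at most 0.01 on any array, so they may not be 2 separate readings. Whether processed copies of Pcna in the mouse genome add to this value was not tested.

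Of the genes for the single strand binding protein RPA, the smallest subunit alone passed. Rpa3 rose by 0.56 ± 0.09 (limma adjusted p 0.000746), from -0.36, -0.19 and -0.25 to 0.16, 0.27 and 0.46, and its 2 probe sets gave 0.46 and 0.66. Rpa1 and Rpa2, the larger subunits, had changes of -0.05 ± 0.10 and -0.01 ± 0.08, their groups overlapped, and the sign of both flipped between alternatives. Fen1, which trims the flaps between Okazaki fragments, rose by 0.42 ± 0.09. Lig1, the ligase that seals them, rose by 0.47 ± 0.09 (limma adjusted p 0.00192) and read 0.14, 0.45 and 0.33 against -0.14, -0.15 and -0.19.

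The largest increase among the 58 genes was that of Tipin, whose product pairs with Timeless to steady stalled forks. It read 0.46, 0.94 and 0.87 on the IL-18 arrays and -0.89, -0.46 and -1.18 on the unstimulated ones. The change of 1.60 ± 0.18 is 3.03-fold (limma adjusted p 4.39e-05). Tipin also varied more within a group than most members, yet a gap of 0.91 separated its groups. Its partner Timeless rose by 0.44 ± 0.12 (limma adjusted p 0.014), a call that ended without IL-18 replicate 3 (limma adjusted p 0.055) or unstimulated replicate 1 (limma adjusted p 0.0587). Clspn, which encodes the checkpoint adaptor claspin, did not pass with 0.19 ± 0.12 (limma adjusted p 0.237). Its IL-18 arrays read -0.12, 0.30 and 0.35, and without replicate 1 it passed with 0.34 (limma adjusted p 0.0137). The chromatin genes of this group all rose. Uhrf1, which carries DNA methylation over to the new strand, rose by 0.80 ± 0.12 (limma adjusted p 0.000374), reading 0.20, 0.56 and 0.53 against -0.20, -0.34 and -0.56. Chaf1b and Chaf1a, subunits of the factor that puts histones on new DNA, rose by 0.58 ± 0.10 and 0.56 ± 0.10.

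Among the S phase enzymes, Dtl stood highest, with 0.35, 0.79 and 0.70 on the IL-18 arrays and -0.60, -0.38 and -0.35 on the unstimulated ones. Its protein directs the destruction of Cdt1 and other targets during S phase, and it rose 2.08-fold (1.05 ± 0.12, limma adjusted p 5.62e-05). Ung, which removes uracil from DNA, rose by 0.45 ± 0.07 (limma adjusted p 0.000534) with little spread, reading 0.20, 0.28 and 0.20 against -0.24, -0.23 and -0.20. Exo1, an exonuclease of mismatch repair, rose by 0.45 ± 0.09. Slbp, which binds the stem-loop of histone messenger RNA, did not pass with 0.06 ± 0.08 (limma adjusted p 0.594), and its 2 probe sets gave 0.06 and 0.05.

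The E2F genes moved in both directions within 1 class. E2f1, E2f2 and E2f3 encode the activators. E2f1 rose by 0.91 ± 0.08 (limma adjusted p 9.36e-06), reading 0.37, 0.54 and 0.48 against -0.44, -0.54 and -0.37. E2f3 rose by 0.66 ± 0.09 (limma adjusted p 0.000195), reading 0.18, 0.45 and 0.41 against -0.24, -0.33 and -0.37, and its 2 probe sets gave 0.47 and 0.85. E2f2, the third activator, fell with -1.20 ± 0.08, or 2.30-fold lower (limma adjusted p 1.07e-06), the lowest adjusted p of the 58 genes. It read -0.55, -0.55 and -0.62 in the IL-18 group and 0.72, 0.55 and 0.61 in the unstimulated group, 1.09 apart at the nearest arrays. Under the 13 alternatives its change stayed between -1.24 and -1.15. E2f7 and E2f8 encode the atypical E2F repressors. E2f8 fell with -1.02 ± 0.19, 2.03-fold (limma adjusted p 0.00175), reading -1.03, -0.18 and -0.49 against 0.58, 0.61 and 0.18. This is the widest spread among the IL-18 arrays of any member, and over the alternatives its change ran from -1.21 to -0.79. E2f7 had -0.27 ± 0.11 and did not pass (limma adjusted p 0.0751), with IL-18 arrays at -0.35, 0.03 and -0.25. Without IL-18 replicate 2 it passed with -0.37 (limma adjusted p 0.0173).

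**Figure D3:**
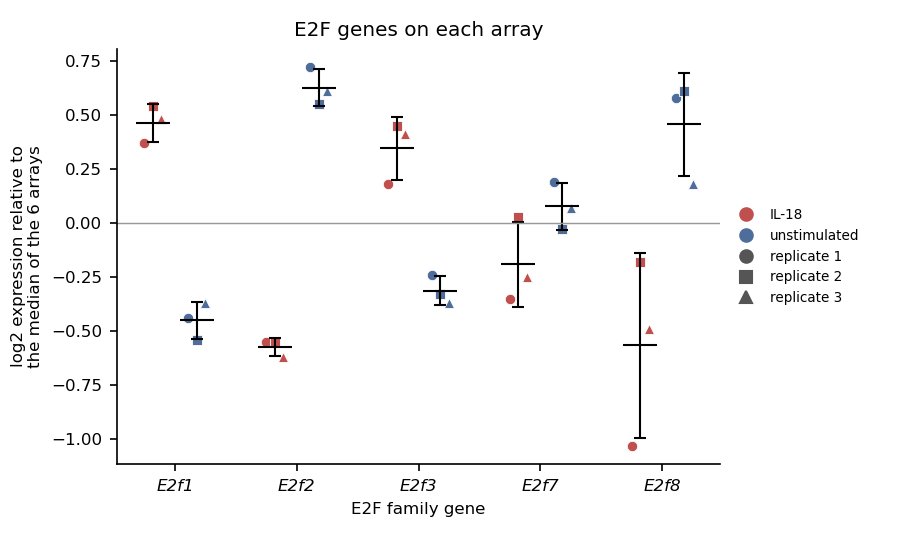
Log2 expression of the 5 E2F genes relative to the median of the 6 arrays, with a point per array (red IL-18, blue unstimulated, shape by replicate) and the mean ± SD of each group (n = 3). E2f1 and E2f3 are higher in the IL-18 group, E2f2 and E2f8 lower, and the E2f7 groups overlap.

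Separation of the arrays gives a second view of the same values. IL-18 values lay wholly above the unstimulated ones for 43 of the 58 genes, where 22.9% of all genes did, and wholly below for 4 (Cdt1, Rfc2, E2f2 and E2f8), where 25.7% of all genes did. The groups overlapped for the other 11. Within the IL-18 group most members shared their lowest array. Replicate 1 was the lowest IL-18 array for 51 of the 58 genes, although it was the lowest for 27.9% of all genes. Member medians were 0.16, 0.30 and 0.33 on IL-18 replicates 1, 2 and 3, and -0.24, -0.19 and -0.30 on the unstimulated ones. Leaving out IL-18 replicate 1 gave a count of 45 higher and 2 lower, where 17.8% and 14.2% of all genes were called.

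Other genes of replication, from a list that shares no gene with the 58, moved mostly the same way. The list had 31 measured genes and a median of 0.30, with 17 rising, 4 falling and 10 not passing. For this list and the next, the shares over all genes tested were again 19.7% higher and 16.7% lower. Mtbp, a partner in origin firing, rose by 1.34 ± 0.12 and Rif1, which sets replication timing, by 0.90 ± 0.11. Dnmt1, the methyltransferase that Uhrf1 recruits, fell with -0.36 ± 0.10 (limma adjusted p 0.016), opposite in sign to Uhrf1. The largest decreases were those of Psip1, a chromatin-binding coactivator, at -0.56 ± 0.13 and of Dna2, a nuclease that trims long flaps, at -0.45 ± 0.10, and the fourth was Rnaseh2c at -0.27 ± 0.09. Of 16 checkpoint and repair genes that watch over forks, 12 rose, 4 did not pass and 0 fell by limma (0 also at an unadjusted p below 0.05), and the median was 0.48. Chek1, the kinase that claspin and Timeless help to activate, rose by 1.65 ± 0.10 (limma adjusted p 8.02e-07) and the helicase gene Blm by 1.09 ± 0.12.

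Regulators of the step from G1 to S were mixed, 9 rising, 6 falling and 9 not passing of 24, beside 19.7% rising and 16.7% falling over all genes. Cdk6, a kinase that releases E2F from the retinoblastoma protein, rose by 2.88 ± 0.10, and E2f5 by 0.84 ± 0.15. Tfdp1, the dimer partner of the E2F proteins, rose by 0.83 ± 0.07. Ccnd3, a cyclin that binds Cdk6, fell with -1.17 ± 0.08, and Ccna2, the cyclin of S phase and G2, with -0.84 ± 0.21.

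Mitosis genes, which act after replication, were lower in the IL-18 generated cells where they changed. The 28 measured genes had a median of -0.39. Limma called 18 of them lower and 0 higher, beside 16.7% and 19.7% of all genes. Of the 28, 10 did not pass, and 0 had a positive change with an unadjusted p below 0.05. The largest decreases were those of Ccnb2, a cyclin of mitotic entry, at -1.74 ± 0.15 and of Mki67, a common marker of dividing cells, at -1.38 ± 0.25. The 2 lists were alike in their lowest IL-18 array but not in their highest. IL-18 replicate 1 was the lowest for 25 of the 28 mitosis genes as it was for most replication genes, but replicate 2 was the highest for all 28, while among the 58 replication genes replicate 2 was highest for 24 and replicate 3 for 32. E2f8 had replicate 1 lowest and replicate 2 highest, and so did replication genes that rose, among them Tipin, Dtl and Prim1. Mitosis medians were -0.56, -0.03 and -0.23 on IL-18 replicates 1, 2 and 3. The difference between the 2 lists was not tested.

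**Figure D4:**
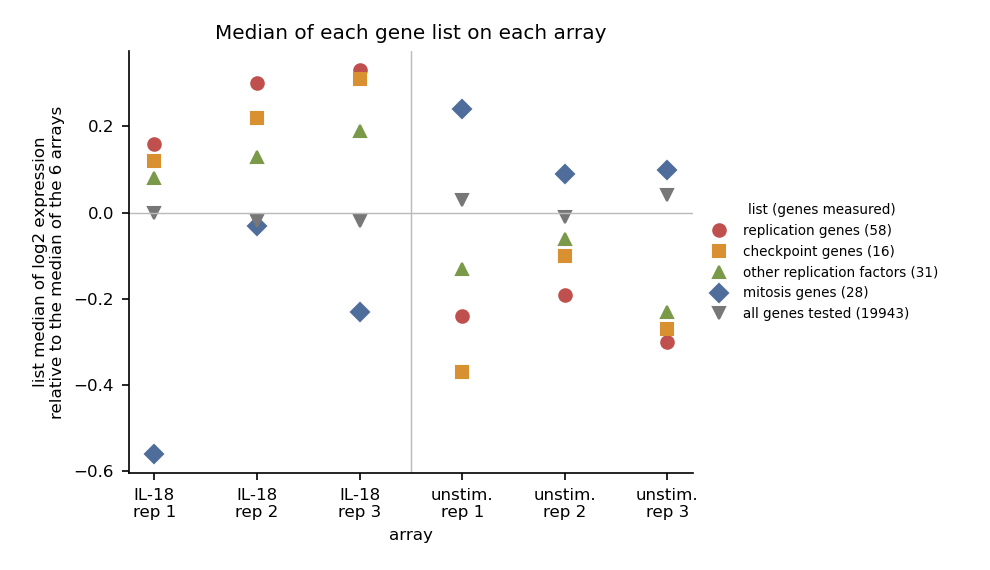
Median log2 expression relative to the median of the 6 arrays, for 4 gene lists and all genes tested, on each array. Replication, checkpoint and other replication genes lie above 0 on the 3 IL-18 arrays and below 0 on the unstimulated ones, mitosis genes the reverse, with IL-18 replicate 1 lowest of all at -0.56. Opposite signs in the 2 groups follow in part from the centring.

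Transcripts of other cell types differed between the groups as well. Over all genes tested, 16.7% were called lower and 19.7% higher. All 6 measured monocyte markers were lower in the IL-18 generated cells. Their list means were -2.02 to -1.94 on those arrays and 1.91 to 2.33 on the unstimulated ones. Their changes ran from -7.16 ± 0.15 for Lyz2, the lowest of all genes tested, to -0.41 ± 0.10 for Cd14. One of the 6, Itgam, encodes CD11b, on which the groups were sorted, and it had a change of -5.32 ± 0.11. All 7 neutrophil markers were lower, with means of -1.49 to -1.15 against 1.32 to 2.85. Changes in that list ran from -5.66 ± 0.32 for Ngp to -1.39 ± 0.24 for Camp. The 4 B cell markers measured were lower too, with means of -0.34 to -0.11 against 0.06 to 0.59. Of 6 T cell markers, the 3 CD3 chain genes were higher, although both groups were sorted as CD3 negative at the surface. Cd4, Cd8a and Cd8b1 did not pass, with changes of -0.02 ± 0.07, -0.26 ± 0.11 and -0.15 ± 0.09. Means over all 6 T cell markers were 0.21 to 0.59 against -0.34 to -0.10. Of the erythroid markers only Klf1 was measured, and it did not pass at -0.26 ± 0.11. The NK markers were all 6 lower, with means of -0.62 to -0.54 against 0.46 to 0.68. Among them, Klrb1c, which encodes NK1.1, had a change of -2.03 ± 0.11, although both groups were sorted as NK1.1 positive. Because the values are centred, none of these markers can be said to be at 0 or present, and the labelled cell type could not be checked by level. The part of these cells in the changes of the replication genes was not tested.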

How the data were processed

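The table used holds the values the authors deposited for 28815 probe sets on 6 one-colour Affymetrix arrays, biotin-labelled with a WT Terminal Labeling Kit per the labels' protocols. How they were summarized and normalized, the log base and the genome build are not given in the sources. The deposited values were read as log2 expression because they run from -4.43 to 5.48 and range up to 7.77 within a probe set, too wide for log10 values of a 16-bit scanner. This range does not exclude natural logs, so the folds and 2-fold counts rest on the reading as log2. Each probe set is centred on its median over the arrays, within 5e-07 of 0, so no level and no filter on dim genes could be had. Array medians lay between -0.025 and 0.039, and the values were used as they are. The precision is limited by the number of arrays.

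Of the probe sets, 21788 had 1 gene symbol in the platform annotation and were averaged per gene, 1597 had several and 5430 none. Identifiers of 21689 were found in the RefSeq gene table. The main test was limma (version 3.58.1, R 4.3.3) with lmFit and eBayes, without covariates, on 6 arrays, and p-values were adjusted over 19943 genes by Benjamini-Hochberg, with calls at 0.05. The fit was run on simulated data with independent noise and few changed genes, which checks the code and not the calls made here. Tables were made with Python 3.11.15, pandas 2.3.3 and numpy 2.4.6, and figures with matplotlib 3.10.9.

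The members and lists were chosen with earlier results of these data known. Full array values are given, within each role, for the 2 largest increases that passed and for every decrease that passed, and other members by their change. From each other list except the cell type markers, up to 2 genes per direction with the largest passing changes are named. The cell type markers were not named by this rule. Array values of Pcna, Cdc7, Dbf4, Clspn, Gmnn and E2f7, and the changes of Dnmt1, Rnaseh2c and Tfdp1, were added after their values were seen, as were the promoter motifs and the windows shown. Promoter sequences are RefSeq's (GRCm38.p6). Replicate numbers were not used to pair the arrays in the main test, as the design text calls the preparations independent.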

Additional observations from a re-analysis of the deposited data

How the results depend on the processing

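Of the 58 genes, 45 kept their direction and their side of the threshold under every alternative run for them (13, or 12 for genes with 2 probe sets). The counts called higher (43) and lower (3) ran from 40 to 45 and from 2 to 4 when 1 array was left out. Over all genes tested, the same fits called 17% to 20.9% higher and 13.3% to 22.1% lower. The median change of the 58 (0.51) ran from 0.48 to 0.58. Against a log2 change of 0.5, limma's treat called 11 higher and 1 lower, beside 5.48% and 4.33% of all genes. The count lower by at least 2-fold (2) fell to 1 with array weights, quantile normalization or arrays centred on their median, and lay between 1 and 2 when 1 array was left out, since E2f8 lies just past 2-fold. The count higher by at least 2-fold (5) lay between 4 and 5. Signs flipped for genes near 0 that did not pass: Rpa1 gave 0.01 with array weights and 0.03 without unstimulated replicate 2. Gins4 gave 0.01 with quantile normalization, with centred arrays and without IL-18 replicate 3. Rpa2 gave 0.02 with centred arrays, and 0.01, 0.00 and 0.04 without IL-18 replicate 1, IL-18 replicate 2 and unstimulated replicate 2. Gmnn gave -0.01 without unstimulated replicate 1. When 1 array was left out, the changes ran from -0.14 to 0.03 for Rpa1, -0.07 to 0.01 for Gins4, -0.06 to 0.04 for Rpa2 and -0.01 to 0.31 for Gmnn. The cause was not tested.

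With the replicate number as a block, 44 genes were higher and 3 lower, beside 19.8% and 16.7% of all genes tested. Cdc7 was the gene added (limma adjusted p 0.0151). Deviations of same-numbered arrays correlated at 0.24, 0.01 and -0.02, and those of differently numbered arrays at -0.29 to 0.25. With 3 arrays per group, this cannot settle whether same-numbered arrays share more than a number. The planned filter on dim genes was not run because centred values hold no level.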
